A study of Mus musculus with 14 samples.

Results

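The insulin-like growth factor (IGF) family was followed here in muscle stem cells of ageing and senescence-prone mice. It was taken as all non-control probes named for Igf1 (ligand), Igf1r and Igf2r (receptors) or Igfbp2, Igfbp3, Igfbp4, Igfbp5, Igfbp6 and Igfbp7 (binding proteins). That rule found 14 of 55681 probes, for 9 of the 32863 genes tested. Satellite cells, which are the stem cells of skeletal muscle fibres, had been sorted as cells carrying Itga7 and CD34 and lacking CD31, CD45, CD11b and Sca1. Their RNA was amplified as a whole transcriptome and each sample was labelled with Cy3 on its own single-colour Agilent array. C57BL/6 mice gave 3 Young samples (2, 2 and 3 months old), 3 Old samples (22, 23 and 24 months) and 2 Geriatric samples (30 and 29 months, numbered 1 and 3), and 3 samples each came from 12-month-old SAMP8 mice, a senescence-prone strain, and SAMR1 mice, its senescence-resistant counterpart. All mice are labelled male, no treatment or transgene is named, and the samples are labelled biological replicates. Geriatric number 2 was not analysed here.

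IGF1 binds the receptor tyrosine kinase IGF1R, which signals through insulin receptor substrates to the PI3K-AKT and ERK pathways, and in muscle it drives myoblast proliferation, differentiation and fibre growth. IGF2R has no kinase and carries IGF2 and mannose 6-phosphate-tagged enzymes to lysosomes. The binding proteins are secreted, hold IGFs outside the cell and set how much reaches the receptor, until proteases cut them; IGFBP7 binds IGFs only weakly and is known as a matrix and vascular protein.

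Each level is a log2 signal relative to the 75th percentile of its own array, so 0 is the level of a fairly bright probe and a step of 1 is a doubling. A transcript was called changed at a Benjamini-Hochberg adjusted p under 0.05 in limma over all genes tested. Because 1 probe's brightness depends on its sequence, levels are set against each other between arrays and never between genes. Probes are shown here for the transcripts that passed the test, for the second probe of Igfbp2, which behaved differently from the first, and for an overlapping pair of Igf1 probes, whose common bases are in capitals. Each line holds 30 of the 60 bases of the probe, and in the Igfbp7 probe the capitals mark AATAAA, the polyadenylation signal, which a search found in 1 of the 14 probes on the printed strand.

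Igfbp5 probe A_52_P281702: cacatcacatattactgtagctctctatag
Igfbp7 probe A_55_P2018611: ttaaacaaaacaAATAAAattcttatcaca
Igf1r probe A_66_P105801: gctaaagctaaggccacttgagtctattac
Igfbp2 probe A_55_P2056729: catctcttctacaacgagcagcaggagact
Igfbp2 probe A_66_P135391: aggagttcccagttttgacacatgtattta
Igf1 probe A_55_P2085984: cctaccaaataacaataataAGTCCAATAA
Igf1 probe A_55_P2031631: AGTCCAATAACATTACAAAGATGGGCATTT

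In the build mm9 of the file headers these probes lie at chr1:72904829-72904888 on the minus strand (Igfbp5), chr5:77778271-77778330 on the minus strand (Igfbp7), chr7:75378461-75378520 on the plus strand (Igf1r), chr1:72898677-72898736 and chr1:72898813-72898872 on the plus strand (both of Igfbp2), and chr10:87393561-87393620 and chr10:87393581-87393640 on the plus strand (both of Igf1). The Igf1 pair shares 40 bases. The Igfbp7 probe is the poorest in G and C of the 14, at 23.3%, and the first Igfbp2 probe the richest, at 55.0%. Igfbp2 and Igfbp5 are neighbours on chromosome 1, with 0 protein-coding genes between them in RefSeq. Exon and UTR boundaries are not given in the files.

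The arrays detected 77.1% to 88.8% of their probes well above background, without saturated spots. Outlier spots numbered 94 to 255 an array, except 969 on Geriatric 1. All 13 satellite cell markers were well above background on the 14 arrays, with a mean level between 2.18 and 2.88. Pax7, the transcription factor that defines these cells, lay between 3.39 and 4.58, and Myf5 between -5.17 and -1.60. Of the 13, Myf5 was called higher in Geriatric versus Old and Myod1 higher in SAMP8 versus SAMR1. Itgam, the gene of CD11b, which the sort selected against, was also well above background on every array (7.42 to 8.70). The purity of the samples was not tested. Precision is limited by the number of arrays. The median change of all genes was -0.18 for Geriatric versus Young and -0.22 for Geriatric versus Old, and with quantile normalization it was -0.04 and 0.03. Among all genes called, that normalization moved the share that was higher to 46.9% against 27.6% for Geriatric versus Old, to 44.8% against 37.7% for Geriatric versus Young, and to 67.7% against 83.3% for Old versus Young; the members called did not change.

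By the probe that stood for each gene, Igfbp5 was the binding protein with the largest difference between Geriatric and Young cells. Its product binds extracellular matrix as well as IGFs, and in mouse its messenger is known from differentiating myoblasts. Its level was 1.16, 2.90 and 2.28 on the Young arrays, 3.23, 2.28 and 3.70 on the Old arrays and 4.69 and 4.91 on the Geriatric arrays. Both Geriatric arrays lay above every Young and Old array, while Young and Old arrays overlapped. Of all genes, 44.2% did not overlap between Geriatric and Young arrays and 54.9% between Geriatric and Old arrays. The mean was 4.80 ± 0.15 in Geriatric (SD, n = 2) against 2.11 ± 0.88 in Young cells (SD, n = 3), a log2 change of 2.69 ± 0.49 (SE) or 6.43-fold, with a limma adjusted p of 0.0113. Igfbp5 was among the 2 of 9 family genes called for Geriatric versus Young, where 4.19% of all genes tested were called, 1.58% as higher and 2.61% as lower. Of 14 single probes 2 were called, beside 3.54% of all single probes. Against the Old mean of 3.07 ± 0.72 (SD, n = 3) the log2 change was 1.73 ± 0.49 (SE), or 3.31-fold, with a limma adjusted p of 0.0298.

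Sex-linked transcripts divided the same samples. Xist, the RNA that coats the inactive X chromosome in females, read 5.59 to 5.86 on Young and 5.08 to 5.55 on Old arrays and was not well above background on either Geriatric array (-6.79 and -7.67). The Y-linked Ddx3y, Uty and Kdm5d were well above background on every Geriatric, SAMP8 and SAMR1 array and on 0 Young or Old arrays. A Y-linked gene that did not divide the samples by detection was Eif2s3y, well above background on all 14 arrays. Its level was -1.81 to -1.13 on Young, -1.85 to -0.86 on Old and -0.23 and -0.64 on Geriatric arrays. On SAMP8 arrays it was -0.43 to -0.20 and on SAMR1 arrays -0.61 to -0.17, so every Young and Old array lay below every other array. By Xist and the first 3 Y-linked genes, Young and Old samples go against their male label. Eif2s3y divided the same samples by level, though not by detection. Age and sex-linked expression therefore cannot be told apart in any comparison of Geriatric with Young or Old cells, for every transcript described here. Within bulk RNA of sorted cells, fewer cells of a type and less RNA per cell cannot be told apart either.

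The Igfbp5 change from Young was lost from the calls without Geriatric 1 (log2 change 2.79, adjusted p = 0.0594) and without Geriatric 3 (2.58, adjusted p = 0.0949), each of which leaves a single Geriatric array. It was 2.24 with slide as a block (limma adjusted p = 0.0292) and 1.90 within slide 2 (limma adjusted p = 0.213), which holds both Geriatric arrays and 1 Young array. With the C57BL/6 arrays alone, its limma adjusted p was 0.0607. The Igfbp5 change from Old was lost without Old 1 (1.81, adjusted p = 0.0604), Old 2 (1.33, adjusted p = 0.0919), Geriatric 1 (1.84, adjusted p = 0.0900) and Geriatric 3 (1.62, adjusted p = 0.160), within slide 2 (1.33, adjusted p = 0.0845) and with the C57BL/6 arrays alone (adjusted p = 0.0823); slide as a block gave 1.51 (limma adjusted p = 0.0287).

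In the strains of 12 months Igfbp5 stood near the Geriatric level. It was 4.94, 4.25 and 4.50 on the SAMP8 arrays and 4.32, 4.23 and 4.50 on the SAMR1 arrays. The strains overlapped and differed by 0.22 ± 0.43 (SE, limma adjusted p = 0.978), with a 95% interval of the difference from -0.74 to 1.17. In order of group means Igfbp5 ran Geriatric, SAMP8, SAMR1, Old and Young, with the arrays of neighbours overlapping except between SAMR1 and Old. These group differences across strains also cross strain, age and the sex-linked division.

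**Figure D1:**
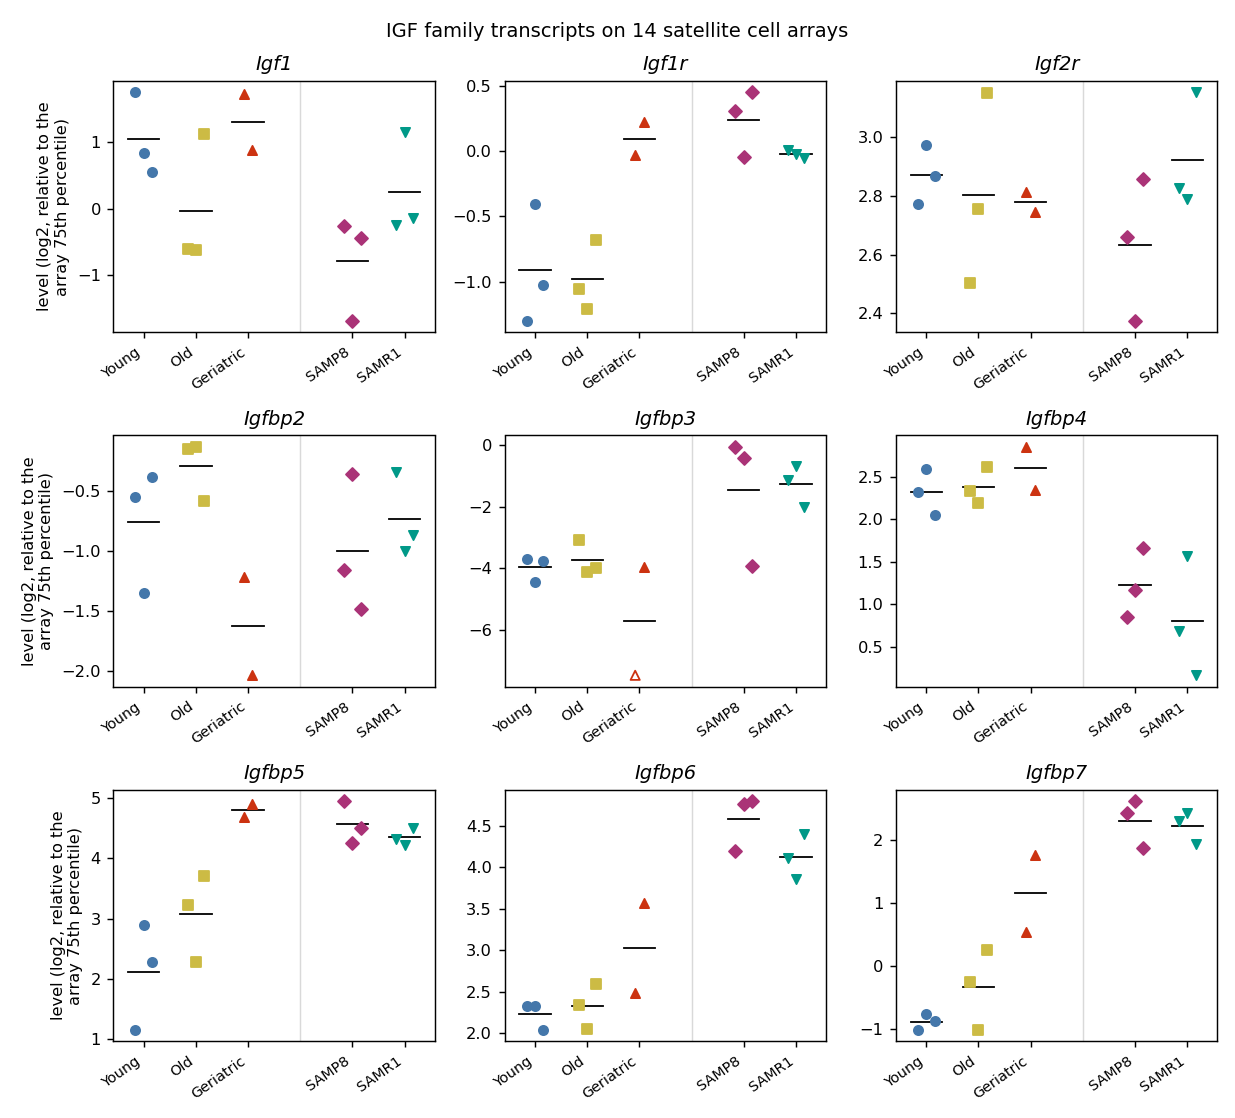
Level of each IGF family transcript (log2, relative to the 75th percentile of the array; vertical axes differ between panels) on every array, by group, with black lines for group means; open symbols mark probes not well above background. Igfbp5 lies at 4.69 and 4.91 on the Geriatric arrays and between 1.16 and 3.70 on the Young and Old arrays, and Igfbp6 lies between 3.86 and 4.79 on the SAMP8 and SAMR1 arrays.

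Igfbp7, the weak IGF binder of matrix and vessel walls, moved in the same direction. Its level was -1.02, -0.78 and -0.89 on the Young arrays, -0.26, -1.02 and 0.24 on the Old arrays and 0.54 and 1.75 on the Geriatric arrays. No Geriatric array overlapped Young arrays, as for 44.2% of all genes, or Old arrays, as for 54.9%. The mean was 1.14 ± 0.86 in Geriatric (SD, n = 2) against -0.89 ± 0.12 in Young cells (SD, n = 3), a log2 change of 2.04 ± 0.41 (SE) or 4.11-fold (limma adjusted p = 0.0191). Against the Old mean of -0.35 ± 0.64 (SD, n = 3) it was 1.49 ± 0.41 (SE), or 2.81-fold (limma adjusted p = 0.0277). SAMP8 arrays read 2.42, 2.61 and 1.87 and SAMR1 arrays 2.30, 2.42 and 1.93, all above the Geriatric arrays. These strains differed by 0.08 ± 0.37 (SE, limma adjusted p = 0.991), with a 95% interval from -0.73 to 0.89.

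Geriatric 1 and 3 differed for Igfbp7 more than for Igfbp5, and Geriatric 3 was the higher. How far markers of other cells differed between them depended on the measure. The mean level of 14 endothelial markers was -3.42 on Geriatric 1, where Esam had no value, and -0.76 on Geriatric 3. Their summed linear level was close, at 18.2 and 20.6. The mean level of 13 mesenchymal markers was 0.23 on Geriatric 1, where Dpep1 had no value, and 0.38 on Geriatric 3. Their summed linear level was 55.4 and 88.6. The part of these cells in Igfbp7 was not tested. Without Geriatric 3 the Igfbp7 change from Young was 1.43 (limma adjusted p = 0.187) and from Old 0.88 (limma adjusted p = 0.265), against 2.65 and 2.10 without Geriatric 1. The change from Young was also lost without Young 3 (2.04, adjusted p = 0.0611), with slide as a block (1.87, adjusted p = 0.0623), within slide 2 (1.92, adjusted p = 0.423) and with the C57BL/6 arrays alone (adjusted p = 0.0701). The change from Old was lost without Old 1 (1.53, adjusted p = 0.0603) and Old 2 (1.15, adjusted p = 0.0850), within slide 2 (1.15, adjusted p = 0.236) and with the C57BL/6 arrays alone (adjusted p = 0.0686); slide as a block gave 1.40 (limma adjusted p = 0.0397).

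Since Igfbp5 and Igfbp7 were higher in Geriatric than in Young and in Old cells, their promoters are shown, from 250 bases before to 50 bases after the transcript start (RefSeq, GRCm38.p6). Igfbp5 lies at chr1:72874816-72875115 and Igfbp7 at chr5:77407996-77408295, both on the minus strand, and capitals mark every match to a searched motif.

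Igfbp5 promoter: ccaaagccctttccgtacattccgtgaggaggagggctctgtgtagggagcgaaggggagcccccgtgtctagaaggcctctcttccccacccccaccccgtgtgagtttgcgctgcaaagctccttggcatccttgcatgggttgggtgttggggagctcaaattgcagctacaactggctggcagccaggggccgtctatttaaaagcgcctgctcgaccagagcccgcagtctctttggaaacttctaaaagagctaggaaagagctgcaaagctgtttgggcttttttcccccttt
Igfbp7 promoter: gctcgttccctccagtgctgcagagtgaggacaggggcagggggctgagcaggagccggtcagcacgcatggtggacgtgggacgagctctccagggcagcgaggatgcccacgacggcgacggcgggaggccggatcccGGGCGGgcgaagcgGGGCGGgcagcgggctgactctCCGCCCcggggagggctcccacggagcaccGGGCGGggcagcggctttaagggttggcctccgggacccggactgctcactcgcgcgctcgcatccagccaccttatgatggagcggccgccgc

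The motifs searched on both strands were the TATA box motif TATAAA, the GC box motif GGGCGG, the FoxO motif GTAAACA, the AP-1 motif TGACTCA, and the E-box in its forms CACGTG, known from MYC and clock factors, and CAGCTG, known from myogenic factors. The Igfbp7 window held 4 GC boxes, a motif found in 35.7% of the 32851 mouse promoters of the same length, and no match to the others. Searched the same way, the Igfbp5 window held 0 matches. GTAAACA was in 3.65% of all promoters and TGACTCA in 5.20% of them. TATAAA was in 13.6%, the first E-box form in 7.15% and the second in 16.3%. Igfbp7's window was 73.3% G and C with 33 CpG dinucleotides and that of Igfbp5 56.3% with 10, beside medians of 52.7% and 7 over all promoters.

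Igf1r, the signalling receptor of IGF1, was higher in Geriatric than in Old cells. Its level was -1.30, -0.40 and -1.03 on the Young arrays, -1.05, -1.21 and -0.68 on the Old arrays and -0.03 and 0.22 on the Geriatric arrays. Both Geriatric arrays lay above all Young and Old arrays. Against Young arrays 44.2% of all genes did not overlap, and against Old arrays 54.9%. The Geriatric mean of 0.09 ± 0.18 (SD, n = 2) stood against -0.98 ± 0.27 in Old cells (SD, n = 3), a log2 change of 1.07 ± 0.28 (SE) or 2.11-fold, with a limma adjusted p of 0.0207. Igf1r was 1 of 4 family genes called for Geriatric versus Old, a comparison in which 20% of all genes were called, 5.52% as higher and 14.4% as lower. Of 14 single probes 4 were called in it, beside 18% of all single probes. The change from Young, at a mean of -0.91 ± 0.46 (SD, n = 3), was close in size, 1.0 ± 0.28 (SE), but did not pass (limma adjusted p = 0.0683). SAMP8 arrays read 0.31, -0.05 and 0.45 and SAMR1 arrays 0.01, -0.02 and -0.06, which overlapped.

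Single arrays decided the Igf1r calls. The change from Old was lost without Old 1 (1.04, adjusted p = 0.0585), Old 2 (0.96, adjusted p = 0.0664), Geriatric 1 (1.20, adjusted p = 0.0590) and Geriatric 3 (0.95, adjusted p = 0.147), within slide 2 (0.96, adjusted p = 0.118) and with the C57BL/6 arrays alone (adjusted p = 0.0629). Slide as a block gave 0.95 (limma adjusted p = 0.0145). Without Young 2, the Young array with the highest Igf1r, the change from Young was 1.26 and passed (limma adjusted p = 0.0240), while within slide 2 it was 0.50 (limma adjusted p = 0.761).

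**Figure D2:**
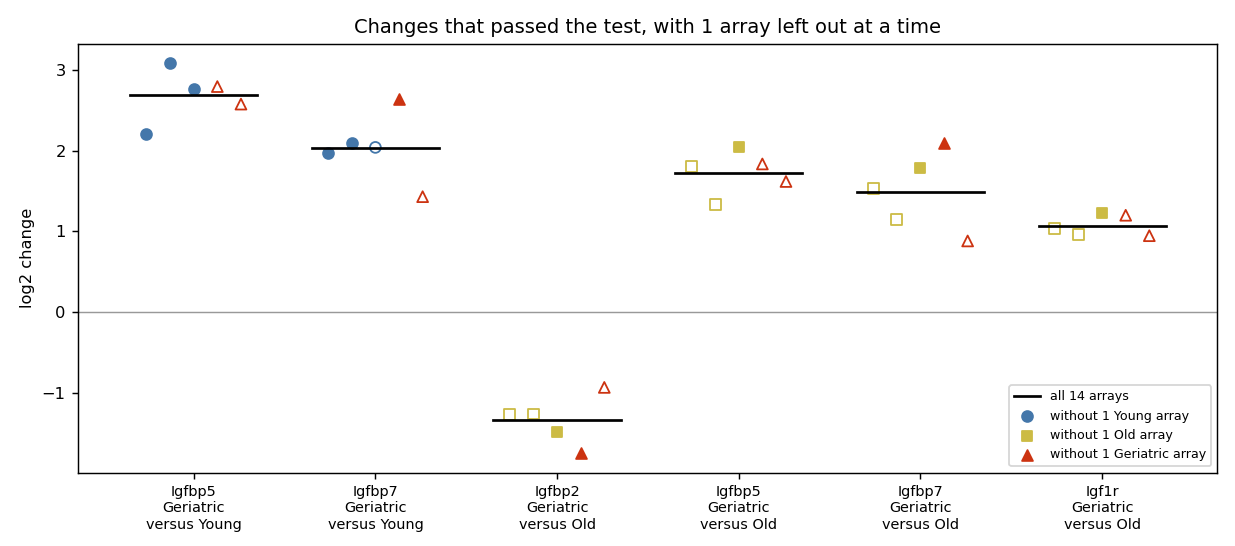
Log2 change of the 6 family results that passed the test (black lines, all 14 arrays), and the same change with 1 array of either compared group left out (symbols by the group of that array); filled symbols kept an adjusted p under 0.05. Without Geriatric 3 the Igfbp7 change from Old was 0.88 against 1.49 with all arrays, and no change turned sign.

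Igfbp2 was the family gene that was lower in Geriatric than in Old cells. It encodes a binding protein that also engages integrins. On its brighter probe, A_55_P2056729, the level was -0.55, -1.35 and -0.38 on Young, -0.15, -0.14 and -0.58 on Old and -1.22 and -2.03 on Geriatric arrays. Both Geriatric arrays lay below all Old arrays, with 54.9% of all genes not overlapping between these groups, and overlapped the Young ones. The mean was -1.63 ± 0.58 in Geriatric (SD, n = 2) against -0.29 ± 0.25 in Old cells (SD, n = 3), and the transcript fell by 1.34 ± 0.40 on the log2 scale (SE, limma adjusted p = 0.0384). Against Young cells the log2 change was -0.87 ± 0.40 (SE, limma adjusted p = 0.236). SAMP8 arrays read -1.16, -0.36 and -1.49 and SAMR1 arrays -0.35, -1.0 and -0.86. Igfbp5, its neighbour on chromosome 1, rose in the same comparison.

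The second Igfbp2 probe, A_66_P135391, did not follow the first. It read -7.50, -7.74 and -7.20 on the Young arrays, where it was not well above background, -4.42, -4.76 and -5.29 on the Old arrays and -4.54 and -4.80 on the Geriatric arrays. Old cells were at least 1.58-fold and Geriatric cells at least 1.76-fold above the Young bound, and neither passed as a single probe (limma adjusted p = 0.212 and 0.187). Such a bound sets the brighter group's mean against, for each dim array, the higher of its lowest detected signal and the probe's own. Geriatric versus Old was 0.16 ± 1.11 (SE) on this probe. Its fitted Geriatric versus Young change was 2.81 ± 1.11 (SE), from Young signals not well above background. With the mean of both probes the Geriatric versus Old change of Igfbp2 was -0.59 and did not pass (limma adjusted p = 0.564), so the call rests on the brighter probe. It was also lost without Old 1 (-1.27, adjusted p = 0.0975), Old 2 (-1.26, adjusted p = 0.10), Geriatric 3 (-0.93, adjusted p = 0.281) or SAMR1 3 (-1.34, adjusted p = 0.0524), within slide 2 (-1.26, adjusted p = 0.134) and with the C57BL/6 arrays alone (adjusted p = 0.0570), and was -1.13 with slide as a block (limma adjusted p = 0.0281).

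For Igf1, the ligand, no comparison passed the test on any of its 5 probes with all 14 arrays. Its representative probe, A_55_P2085984, read 1.75, 0.84 and 0.56 on the Young arrays, -0.61, -0.62 and 1.12 on the Old arrays and 1.74 and 0.89 on the Geriatric arrays. Old 3 lay within the Young range, and the other Old arrays lay below it. Old versus Young was -1.09 ± 0.59 (SE, limma adjusted p = 0.381) and Geriatric versus Old 1.35 ± 0.66 (SE, limma adjusted p = 0.164). Without Old 3 the Geriatric versus Old change was 1.93 and passed (limma adjusted p = 0.0469), and in the fit of single probes A_55_P2031631 and A_55_P2085974 then passed while the representative probe did not. SAMP8 arrays read -0.26, -1.69 and -0.44 and SAMR1 arrays -0.25, 1.16 and -0.15. The strains did not overlap, by a margin of 0.01 between SAMP8 1 and SAMR1 1, and the difference of -1.05 ± 0.59 (SE) did not pass (limma adjusted p = 0.717), with 13.1% of all genes not overlapping between these strains.

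The 5 Igf1 probes differed among themselves for Old versus Young. The overlapping pair gave -1.09 ± 0.59 and -0.99 ± 0.61 (SE), and A_55_P2031636, further along the transcript, -0.27 ± 0.28 (SE). A_55_P2085974, at chr10:87399581-87399640 and the farthest along, gave -2.06 ± 0.81 (SE, limma adjusted p = 0.232) and was not well above background on Old 2. A_55_P2085979, designed on another Igf1 transcript at chr10:87378456-87378515, gave 0.38 ± 0.43 (SE, limma adjusted p = 0.723). The difference between the probes was not tested.

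**Figure D3:**
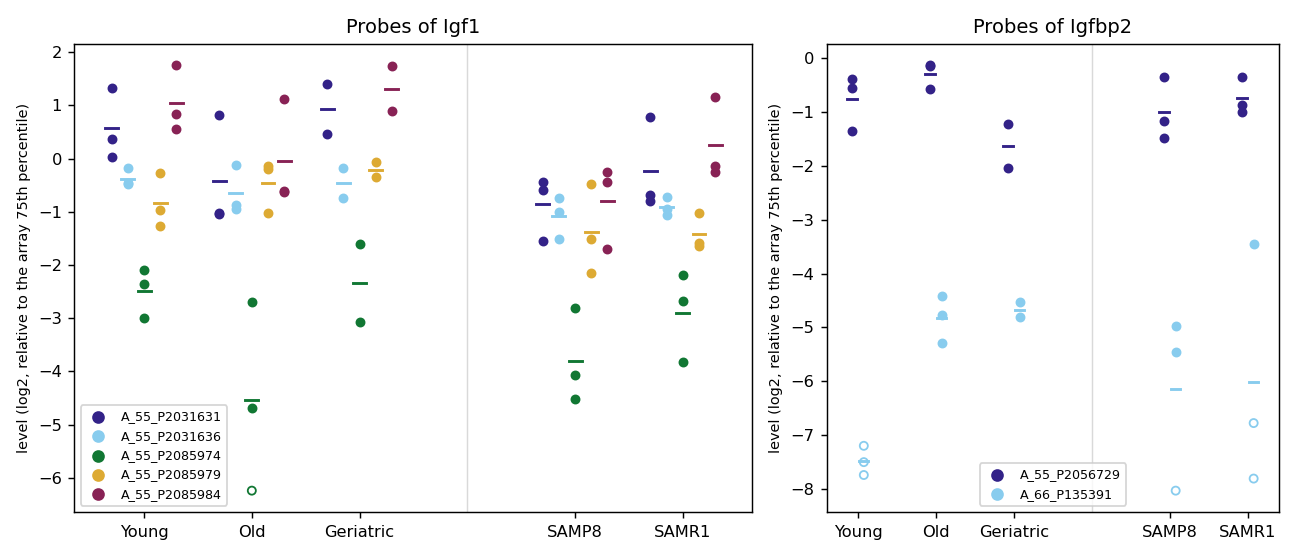
Level (log2, relative to the 75th percentile of the array) of the 5 Igf1 probes and the 2 Igfbp2 probes on every array by group, with short lines for means and open symbols where a probe was not well above background. The heights of different probes are not comparable; Igfbp2 probe A_66_P135391 is open on all 3 Young arrays and filled on all Old and Geriatric arrays.

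Igf2r, the lysosomal sorting receptor on chromosome 17, varied least. It read 2.77, 2.97 and 2.87 on Young, 2.50, 2.76 and 3.15 on Old and 2.81 and 2.74 on Geriatric arrays, and 2.66, 2.38 and 2.86 on SAMP8 arrays against 2.83, 2.79 and 3.15 on SAMR1 arrays. All neighbouring groups overlapped. The 95% interval of the difference ran from -0.61 to 0.42 for Geriatric versus Young and from -0.75 to 0.17 for SAMP8 versus SAMR1, and the limma adjusted p of these differences was 0.841 and 0.829.

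Igfbp4, an inhibitor of IGF action that PAPP-A cleaves, had levels of 2.32, 2.59 and 2.05 on Young, 2.34, 2.19 and 2.61 on Old and 2.85 and 2.35 on Geriatric arrays. On SAMP8 arrays it read 0.85, 1.17 and 1.67 and on SAMR1 arrays 0.69, 1.57 and 0.17. All 6 arrays of these strains lay below all 8 C57BL/6 arrays, the opposite order to Igfbp6. The share of all genes that parted these strains from C57BL/6 in either direction was not counted. Within each comparison the groups overlapped, and the limma adjusted p was 0.701 for Geriatric versus Young and 0.865 for SAMP8 versus SAMR1.

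Igfbp6, which prefers IGF2 over IGF1, read 2.32, 2.33 and 2.04 on Young, 2.34, 2.05 and 2.59 on Old and 2.48 and 3.57 on Geriatric arrays. Geriatric arrays did not overlap Young ones, as for 44.2% of all genes, and the log2 change of 0.80 ± 0.33 (SE) did not pass (limma adjusted p = 0.191). It was 0.25 without Geriatric 3 and 1.34 without Geriatric 1 (limma adjusted p = 0.765 and 0.0852). Against Old, the change of 0.70 did not pass (limma adjusted p = 0.151), but without Geriatric 1 it was 1.25 and passed (limma adjusted p = 0.0428). SAMP8 arrays read 4.19, 4.76 and 4.79 and SAMR1 arrays 4.11, 3.86 and 4.40, all above the C57BL/6 arrays. These 2 strains overlapped (difference 0.46 ± 0.30, SE, limma adjusted p = 0.781). The mean level of 13 mesenchymal markers, genes of fibro-adipogenic cells that the gate was set to remove, was also higher in these strains. It was 0.92 to 1.19 on SAMP8 and 0.80 to 0.93 on SAMR1 arrays, against 0.05 to 0.15 on Young and -0.04 to 0.31 on Old arrays. On Geriatric 3 it was 0.38. Geriatric 1, at 0.23, had no value for Dpep1, a dim marker (-3.36 on Geriatric 3). Its mean thus holds fewer genes and cannot be ordered against the Young and Old means. The summed linear level of these markers was 118 to 139 on SAMP8 and 83.4 to 109 on SAMR1 arrays. It was 75.9 to 82.2 on Young, 60.8 to 91.4 on Old and 55.4 to 88.6 on Geriatric arrays, so SAMR1 overlapped Old and Geriatric. Not every marker was higher in these strains. Thy1 read 1.43 to 1.98 on SAMP8 and 1.16 to 2.66 on SAMR1 arrays, below 3.41 to 3.75 on Young arrays. Col3a1, Dpt, Clec3b and Pi16 were among the markers on which these strains overlapped Young arrays. Of the 13 markers Dpt rose and Thy1 fell in Geriatric versus Young. The part of these cells in Igfbp6 was not tested.

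Igfbp3, the main carrier of IGFs in blood, was the most variable member. It read -3.70, -4.44 and -3.78 on Young, -3.09, -4.13 and -3.98 on Old and -7.48 and -3.97 on Geriatric arrays, where Geriatric 1 was not well above background. On SAMP8 arrays it read -0.06, -0.43 and -3.93, against -1.12, -0.70 and -2.02 on SAMR1 arrays. SAMP8 3 thus lay at the C57BL/6 level and apart from SAMP8 1 and 2. The SAMP8 versus SAMR1 difference was -0.20 ± 1.01 (SE, limma adjusted p = 0.992), and it was 1.03 without SAMP8 3.

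Endothelial markers split the arrays in the same places. The mean level of 14 of them was 2.09, 2.19 and -0.65 on SAMP8 arrays 1, 2 and 3 and 1.34 to 2.49 on SAMR1 arrays. It was -2.65 to -1.35 on Young, -2.32 to -0.57 on Old and -3.42 (without a value for Esam) and -0.76 on Geriatric arrays. Their summed linear level was 20.6 on SAMP8 3, against 85.3 and 92.7 on the other SAMP8 arrays and 54.1 to 112 on SAMR1 arrays. That sum was 18.2 on Geriatric 1 and 20.6 on Geriatric 3. The 4 red cell markers had a mean level of -2.89 on SAMP8 3, against -0.77 and 1.17 on the other SAMP8 arrays and -0.42 to 0.35 on SAMR1 arrays. That split came from the globin genes Hba-a1 (-0.61 against 4.85 and 6.09 on the other SAMP8 arrays) and Hbb-b1 (-8.03 against -4.16 and 0.61). Alas2 (-0.68 against -1.76 and -0.11) and Slc4a1 (-2.26 against -2.01 and -1.90) did not share it. CD31, the product of Pecam1, was a marker of the cells sorted away, and Pecam1 itself read 3.38, 3.77 and 0.61 on SAMP8 and 2.39 to 3.80 on SAMR1 arrays. Of the 14 endothelial markers 0 were called in any comparison, and their part in Igfbp3 was not tested. On SAMP8 3 Igfbp7, at 1.87, was the lowest of the 6 arrays of these strains, while Igfbp5, at 4.50, lay within the range of the others.

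**Figure D4:**
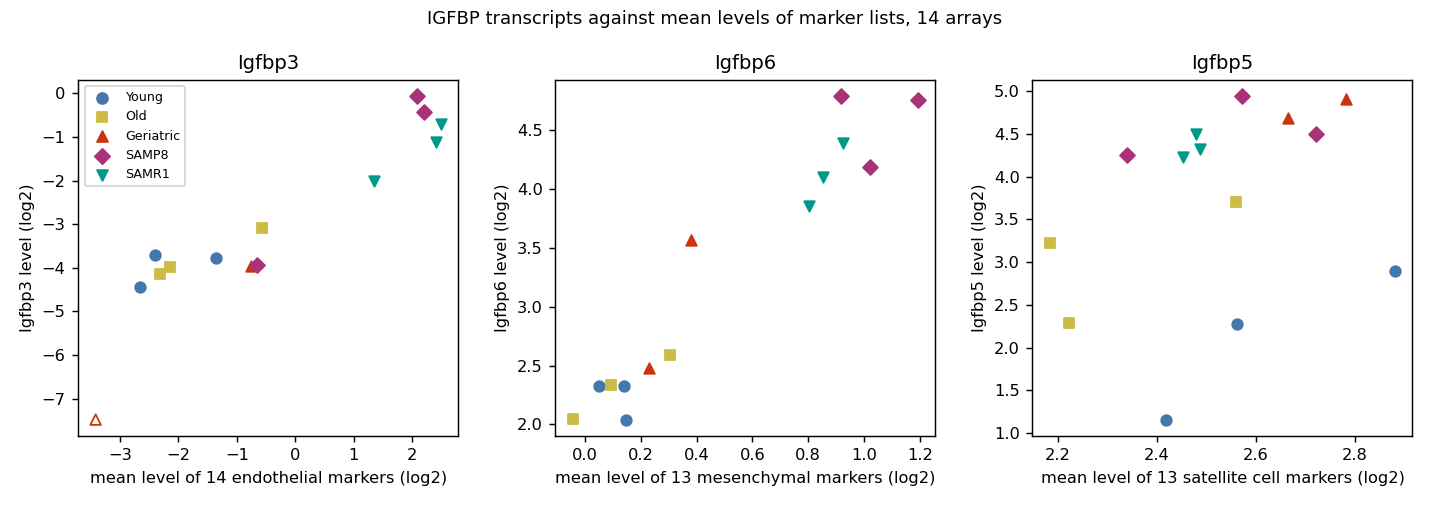
Level of Igfbp3, Igfbp6 and Igfbp5 (vertical, log2) against the mean level of 14 endothelial, 13 mesenchymal and 13 satellite cell markers (horizontal, log2) on 14 arrays, coloured by group. For Igfbp3, SAMP8 3 lies at -3.93 with an endothelial mean of -0.65, beside the C57BL/6 arrays. The open symbol is Geriatric 1, where Igfbp3 was not well above background. Esam and Dpep1 had no value on Geriatric 1, so its endothelial and mesenchymal means hold fewer genes.

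No family member passed the test between Old and Young cells. Of 9 genes, 0 were called for Old versus Young in limma, where 1.44% of all genes were called, and 1 member, Igfbp5, had an unadjusted p under 0.05. Its log2 change was 0.96 ± 0.43 (SE, limma adjusted p = 0.293), with a 95% interval from 0.0045 to 1.91, and the smallest adjusted p of any member was also 0.293. Old versus Young compared samples alike in their Y-linked transcripts. For SAMP8 versus SAMR1, 0 of 9 were called in limma, where 0.453% of all genes were called, and 0 members had an unadjusted p under 0.05. These counts were 0 under every alternative tried, and they do not show that the groups were alike.

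**Figure D5:**
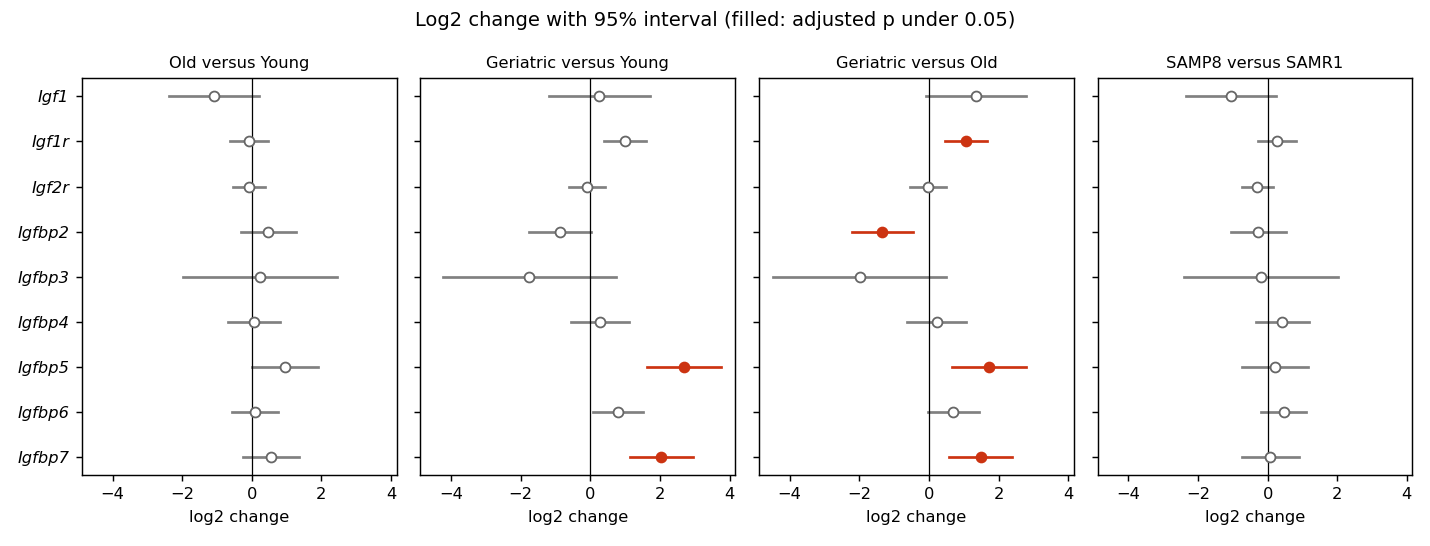
Log2 change of each family gene in the 4 comparisons (horizontal; circles, estimates; bars, 95% intervals from limma), with filled red circles where the adjusted p was under 0.05. The filled circles are Igfbp5 (2.69) and Igfbp7 (2.04) for Geriatric versus Young and Igf1r, Igfbp2, Igfbp5 and Igfbp7 for Geriatric versus Old.

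Whether the Geriatric versus Young change differed from that of SAMP8 versus SAMR1 was tested as a difference of log2 changes. For Igfbp5 it was 2.47 ± 0.65 (SE, limma adjusted p = 0.0959) and for Igfbp7 1.96 ± 0.55 (SE, limma adjusted p = 0.119). Of 9 family genes 0 passed, at unadjusted p values of 0.00285 and 0.0044 for these 2 genes, where 1.73% of all genes passed. Over the 9 genes the median change was 0.28 for Geriatric versus Young, beside -0.18 over all genes, 0.70 for Geriatric versus Old, beside -0.22, 0.09 for Old versus Young, beside 0.06, and 0.08 for SAMP8 versus SAMR1, beside 0.01.

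The remaining ligands were tested together with circulating partners. Igf2, the fetal and paracrine ligand, did not pass in any comparison; it read 1.09 to 1.81 on Young, 1.80 to 2.29 on Old and 2.27 and 2.18 on Geriatric arrays. Of 5 ligands and circulating partners, 1 was called in Geriatric versus Old, beside 20% of all genes. It was Igfbp1, a liver-secreted binding protein and the chromosomal neighbour of Igfbp3. Igfbp1 was not well above background on either Geriatric array, and Old cells were at least 2.78-fold higher (limma adjusted p = 0.0143). The fitted log2 change was -1.78, and the call was lost with quantile normalization (-0.83, adjusted p = 0.264), with the authors' table (-0.18, adjusted p = 0.426) and without Geriatric 1 (adjusted p = 0.0663) or Geriatric 3 (adjusted p = 0.0876).

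Among proteases that release IGFs and their inhibitors, the calls fell on inhibitors. Of 15 proteases and inhibitors tested, 2 rose and 0 fell for Geriatric versus Young, beside 1.58% of all genes higher and 2.61% lower. Serpine2, which blocks thrombin and urokinase, read 1.05 on both Geriatric arrays against -1.79, -2.32 and -1.50 on Young arrays, a log2 change of 2.93 ± 0.26 (SE, limma adjusted p = 0.000216). Timp3, an inhibitor of matrix metalloproteinases and ADAM proteases, read 1.87 and 2.24 on Geriatric arrays against -0.73, -0.25 and -0.49 on Young arrays, a change of 2.54 ± 0.24 (SE, limma adjusted p = 0.000321). Timp3 was also the gene of this list called for Old versus Young, at 1.51 ± 0.22 (SE, limma adjusted p = 0.0103), with Old arrays at 0.95, 0.90 and 1.21. For Geriatric versus Old, Serpine2 (2.20 ± 0.26, SE, limma adjusted p = 0.000393) and Timp3 (1.03 ± 0.24, SE, limma adjusted p = 0.0141) rose and Timp1, another metalloproteinase inhibitor, fell by 1.72 ± 0.42 on the log2 scale (SE, limma adjusted p = 0.0163). These 3 of 15 stand beside 20% of all genes. The Timp1 call was lost with quantile normalization (-1.43, adjusted p = 0.0692), within slide 2 (adjusted p = 0.163) and without Old 2 (adjusted p = 0.0543), Geriatric 1 (adjusted p = 0.0891) or Geriatric 3 (adjusted p = 0.0755). The Timp3 change from Old was lost without Geriatric 3 (0.85, adjusted p = 0.133) and within slide 2 (adjusted p = 0.144). Within slide 2 the Serpine2 and Timp3 changes from Young did not pass either (3.38 and 2.30, adjusted p = 0.0831 and 0.157). The Timp3 change in Old versus Young was lost within slide 1 (adjusted p = 0.212), within slide 2 (adjusted p = 0.467) and with the C57BL/6 arrays alone (adjusted p = 0.0592). For SAMP8 versus SAMR1, 0 of 15 were called in limma, beside 0.453% of all genes.

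Among 12 proteins that share the IGFBP domain, Wisp2, a matricellular protein of the CCN family, rose. It read 0.33 and 1.24 on Geriatric arrays against -2.33, -2.76 and -2.38 on Young arrays, a log2 change of 3.27 ± 0.32 (SE, limma adjusted p = 0.000378), and against Old arrays at -2.73, -2.93 and -2.85 it was 3.62 ± 0.32 (SE, limma adjusted p = 8.86e-05). It was the 1 gene of 12 called for Geriatric versus Young, beside 4.19% of all genes, and within slide 2 it did not pass (3.54, adjusted p = 0.132). For Geriatric versus Old 2 of 12 were called, beside 20% of all genes. The other was Igfbpl1, which was lower: 0 of 2 Geriatric and 2 of 3 Old arrays were well above background, and Old cells were at least 3.33-fold higher (limma adjusted p = 0.0449). That call held in 10 of 23 alternatives, with log2 changes from -3.90 to -0.51. It was lost with the authors' table (-0.51, adjusted p = 0.147), with quantile normalization (-2.17, adjusted p = 0.166), with slide or replicate blocks, and without any 1 of Young 2, Old 1, Old 3, Geriatric 1, Geriatric 3, SAMR1 2 or the 3 SAMP8 arrays.

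Downstream of the receptors, 36 genes of insulin and IGF signalling were tested. For Geriatric versus Young 0 were called in limma, for Old versus Young 1 and for Geriatric versus Old 4 rose and 2 fell, at shares of all genes of 4.19%, 1.44% and 20%. Foxo3, a transcription factor that AKT keeps out of the nucleus, read 3.14 and 2.86 on Geriatric arrays and 4.06, 4.28 and 4.55 on Old arrays, and fell by 1.29 ± 0.22 on the log2 scale in Geriatric versus Old (SE, limma adjusted p = 0.00289). It had risen by 0.91 ± 0.20 in Old versus Young (SE, limma adjusted p = 0.0493), a call lost when any 1 of the 14 arrays was left out. Both Foxo3 calls rest on the brightest probe: with the mean of all its probes the changes were -0.31 in Geriatric versus Old (limma adjusted p = 0.419) and 0.02 in Old versus Young (limma adjusted p = 0.979). The Geriatric versus Old call was also lost within slide 2 (-1.30, adjusted p = 0.0766). Irs2, a docking protein of the receptors, fell by 1.08 ± 0.20 in Geriatric versus Old (SE, limma adjusted p = 0.00456), with 4.60 and 4.28 on Geriatric against 5.44 to 5.68 on Old arrays. Tsc1, a subunit of the complex that restrains mTORC1, rose by 0.98 ± 0.23 (SE, limma adjusted p = 0.0130). Irs2 was lost from the calls without Geriatric 3 (adjusted p = 0.0622), Tsc1 without Geriatric 1 (adjusted p = 0.0575) or Geriatric 3 (adjusted p = 0.0931), and both within slide 2 (adjusted p = 0.0827 and 0.146). Of 5 genes of the mannose 6-phosphate route 0 were called in any comparison. Of 2 tested IGF mRNA binding proteins 1 was called in Geriatric versus Old, beside 20% of all genes. This was Igf2bp2, which fell by 2.19 ± 0.66 (SE, limma adjusted p = 0.0375). That call was lost without any 1 of the Old or Geriatric arrays (-2.78 to -1.61, adjusted p = 0.0545 to 0.262), within slide 2 (adjusted p = 0.0956) and with the replicate block (adjusted p = 0.0627).

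Patterns over the 14 arrays that were most like a called member are given as Pearson correlations among 18847 named genes, which share strain, age and sex-linked differences between the groups. Igfbp5 was closest to Angpt1 (0.984), the ligand of Tek, then Rarres2 (0.963) and Nid2 (0.963), a basement membrane protein. Igfbp7 was close to Tgm2 (0.978) and Fam43a (0.973), Igf1r to Vwa5a (0.977), Mdfic (0.975) and Serpinb6a (0.975), and Igfbp2 to Trpc4 (0.948), Gm8075 (0.946) and Gfap (0.943). Within the family, Igfbp6 and Igfbp7 had a correlation of 0.934 and Igfbp5 and Igf1r of 0.913, while Igfbp4 and Igfbp3 had -0.783.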

How the data were processed

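RNA of 14 sorted samples was measured on single-colour arrays. The deposited scanner files hold background-subtracted processed spot signals as linear intensity, per the file headers from Agilent's Feature Extraction software, version 10.7.3.1. A deposited value table of the authors is on the log2 scale. How it was made is not stated in any source at hand, but it equalled normexp (offset 50) with quantile normalization to within 0.000117, with a median of 7.80 in every column.

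Control and outlier spots were left out (515 missing values in the fit, in which a gene keeps its other arrays), replicate spots were averaged, and each array's 75th percentile was subtracted from its log2 processed signals. Probes had to be well above background on 2 or more arrays of some group (49918 of 55681), and the kept probe with the highest mean stood for its gene (32863 genes). The test was limma's (version 3.58.1, R 4.3.3; lmFit and eBayes, 1 coefficient a group, two-sided, Benjamini-Hochberg over all genes), tested on simulated data first; SE, intervals and adjusted p come from that fit. Old and Young, Geriatric and Young, Geriatric and Old, and SAMP8 and SAMR1 were compared, so comparisons of C57BL/6 ages share samples. The 2 slides were read from the slide identifiers of the array files and each holds several groups; slide 1 holds Young 1 and 3, Old 2, SAMP8 2 and SAMR1 1 and 3. Alternatives were the normexp signal, quantile normalization, the authors' table, other filters, the mean of all probes, slide and replicate blocks, single slides, fewer groups, an adjusted p under 0.1 and each array left out. Equal replicate numbers did not pair samples: deviations of same-numbered samples correlated between -0.255 and 0.156.

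All family members are named, list genes that passed the test up to 3 a list and comparison by the smallest p, and for called members the 3 genes most alike, of which 1 is not reported here. Markers and Igf2 are named beside results they bear on. The members and lists were chosen with earlier results of these data known. Sequences come from the scanner files and RefSeq (GRCm38.p6).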

Additional observations from a re-analysis of the deposited data

Results flagged for a closer look

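In 3 genes of the pathway lists the change of Geriatric versus Young differed from that of SAMP8 versus SAMR1. This was limma's test of the difference of the 2 log2 changes, adjusted over all genes. They were 2 of 15 proteases and inhibitors and 1 of 12 proteins with an IGFBP domain. Of all genes tested 568 passed, or 1.73%, and genes of the marker lists that passed are not counted among the 3. The difference was 3.05 for Serpine2 (SE 0.347, adjusted p = 0.0014), 2.93 for Timp3 (SE 0.327, adjusted p = 0.00121) and 4.17 for Wisp2 (SE 0.431, adjusted p = 0.000725). Within slide 2 these differences were 3.51, 2.88 and 3.86 and did not pass (limma adjusted p = 0.188, 0.301 and 0.301). Among the 9 family members 0 passed that test in limma. The Geriatric samples also differ from the Young samples in their sex-linked transcripts, and the difference cannot be told apart from age.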

How the results depend on the processing

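Igfbp5 and Igfbp7 for Geriatric versus Young were also called with the normexp signal, quantile normalization, the authors' table, both other filters and the mean of all probes. With slide as a block or with the replicate block 1 was called (Igfbp5), and within slide 2 or with the C57BL/6 arrays alone 0. With 1 array left out the count was 0 to 3 against 2. For Geriatric versus Old it was 4, with 1 (Igf1r) under the replicate block, 0 within slide 2 and 0 with the C57BL/6 arrays alone, and 0 to 5 with 1 array left out. For the difference of differences, 1 was called with the normexp signal (Igfbp7, adjusted p = 0.0328), 1 with the authors' table (Igfbp5, adjusted p = 0.0487), 1 at an adjusted p under 0.1 (Igfbp5), and 0 to 1 with 1 array left out. Of single probes the replicate block called 1 for Geriatric versus Young and 0 for Geriatric versus Old, and leaving out 1 array called 0 to 3 and 0 to 6. The replicate block changed the side of the threshold for 4 of 45 member changes. A single remaining Geriatric array is assumed to vary like the other groups. Over the alternatives all genes called numbered 0 to 1180 for Old versus Young (472), 2 to 2576 for Geriatric versus Young (1377), 1553 to 9734 for Geriatric versus Old (6561) and 0 to 263 for SAMP8 versus SAMR1 (149). The causes were not tested. Signal over background limits Igfbp3, the second Igfbp2 probe and Igfbp1.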
